A study of Mus musculus with 6 samples.

Results

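TRBV19 is 1 of the variable (V) segments of the mouse T-cell receptor beta chain, and it is described here in splenic T follicular regulatory (Tfr) cells. Its members were all rearrangements whose V segment call began with TCRBV19. There were 466 of them among the 4409 listed over 6 samples, with 692 of 7043 counted templates, and all carried the same allele call. The study took 3 mice of the genotype Foxp3GFP, a Foxp3 reporter, and gave 1 sample titled superior and 1 titled inferior per mouse. The labels do not define these words, and they are used only as group names (n = 3 each). Organ, sorted cell type and genotype were the same in all 6 samples, and the labels give no age, sex, strain or treatment. The assay read genomic DNA, so no marker gene was measured and the sorted cell type could not be checked. Nothing in the labels says how the 2 samples of a mouse differ. Each p-value of superior against inferior measures the spread between the 6 samples, without pairing by mouse unless a mouse block is named. For TRBV19 against all other V segments the 2 samples of a mouse were summed. Those p-values measure the spread between the 3 mice.

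Tfr cells are CD4 T cells that carry Foxp3, enter the B-cell follicle and restrain the germinal centre reaction. Each T cell builds its beta chain by joining a V, a D (diversity) and a J (joining) segment, with bases removed and added at the joints, and the resulting complementarity-determining region at the joint (CDR3) contacts the antigenic peptide. TRBV19 is the segment long known as Vbeta6, which the RefSeq gene table lists under the older name Tcrb-V6, and Vbeta6 T cells are a textbook target of deletion by mouse mammary tumour virus superantigens in strains that carry them. In the RefSeq gene table for GRCm38.p6 (mm10), Trbv19 is a V segment gene on chromosome 6, from 41178589 to 41179048. It lies 354153 bases from Trbd1 (41533201 to 41533212). Trbd2 (41542163 to 41542176) lies between the TRBJ1 and TRBJ2 clusters.

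The most common letter among the members at each of the 15 bases from the cysteine codon is given first. These letters mark where the V segment stops in each CDR3, up to 15 bases. Capitals mark the codon for isoleucine, residue 5 of the CDR3. Called majority letters here, they come from the members themselves and are not a genome sequence.
TRBV19 majority letters: tgtgccagcagtATA

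Some of the largest members of single samples are shown next, because they display the range of joints. The letters run from the cysteine codon to the last base before the final CDR3 codon. Lower case marks the stretch that matches the V letters at the left and the J letters at the right, and capitals mark the bases between them.
TRBV19 with TRBJ1-3, inferior sample of mouse 3: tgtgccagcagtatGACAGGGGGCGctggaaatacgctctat
TRBV19 with TRBJ2-7, inferior sample of mouse 1: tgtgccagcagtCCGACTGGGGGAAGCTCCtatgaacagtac
TRBV19 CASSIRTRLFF TRBJ1-4, inferior sample of mouse 1: tgtgccagcagtataAGGACaagattattt
TRBV19 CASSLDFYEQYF TRBJ2-7, superior sample of mouse 1: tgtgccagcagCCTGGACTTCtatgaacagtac
TRBV19 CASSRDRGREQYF TRBJ2-7, superior sample of mouse 3: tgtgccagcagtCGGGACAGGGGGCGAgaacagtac
TRBV19 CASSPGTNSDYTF TRBJ1-2, superior sample of mouse 2: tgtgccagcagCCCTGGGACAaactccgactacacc

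These show joints with and without the isoleucine codon, with 5 to 18 bases between the V and J stretches.

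TRBV19 was among the 4 most used V segments of every sample, and its share did not differ between superior and inferior samples beyond the test. The superior samples of mice 1, 2 and 3 held 71 of 667, 124 of 1095 and 113 of 1136 templates, or 10.6%, 11.3% and 9.95%. The inferior samples held 128 of 1370, 87 of 920 and 169 of 1855 templates, or 9.34%, 9.46% and 9.11%. Each superior sample stood above each inferior sample, so the superior share was higher in 3 of 3 mice. With each rearrangement counted once, it was lower in mouse 1, at 9.89% against 10.4%. The 95% Wilson intervals overlapped, from 8.34% to 13.3% over the superior and from 7.73% to 11.5% over the inferior samples. These intervals cover counting error only. On templates summed per V segment, the log2 difference of superior over inferior was 0.19 (SE 0.15, edgeR quasi-likelihood adjusted p = 0.898). The same fit called 0 of 23 V segments, or 0%, with 2 at unadjusted p under 0.05, and DESeq2 also called 0.

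**Figure D1:**
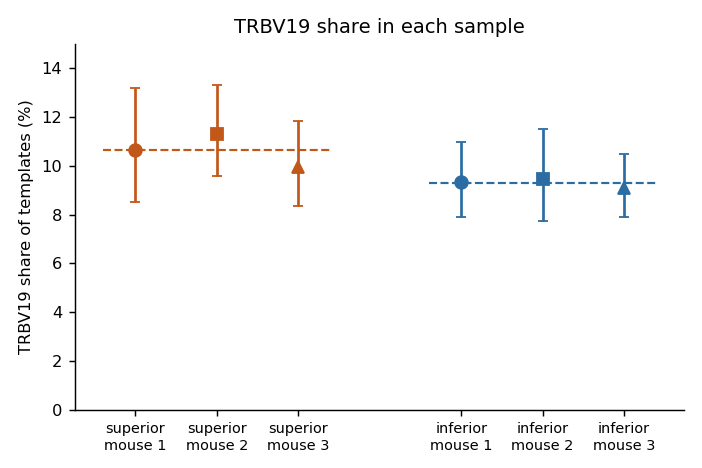
TRBV19 share of templates in percent in each sample, superior samples at the left and inferior samples at the right. Points are samples, bars their 95% Wilson intervals and dashed lines the group means of 10.6% and 9.30%. All 6 samples lie between 9.11% and 11.3%. Each superior sample lies above each inferior sample, and the intervals of the groups overlap.

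By templates, TRBV19 had rank 1 among the V segments in the superior sample of mouse 1 and rank 3 or 4 in the other samples. With each rearrangement counted once it had rank 2 or 3 in every sample, with a mean share of 10.6% ± 1.14 (SD, n = 6), against 9.97% ± 0.858 by templates. By mean share of templates it followed TRBV13-2 at 11.9% ± 2.99, TRBV2 at 10.9% ± 1.74 and TRBV3 at 10.3% ± 1.36, and each of these stood above it by less than its own spread between samples. TRBV2 had 2.52 templates per listed rearrangement, TRBV19 1.48 and TRBV13-2 1.45. By mean share of rearrangements TRBV2 held 6.99%, below TRBV19.

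The use of J segments by TRBV19 did not differ from that of the other V segments beyond the test. TRBJ2-7 was the J segment TRBV19 used most. TRBJ2-7 is the last functional J segment of the locus. It held 41, 38 and 32 of the TRBV19 templates in superior samples of mice 1, 2 and 3, or 57.7%, 30.6% and 28.3%. In inferior samples it held 46, 21 and 48, or 35.9%, 24.1% and 28.4%. The superior sample of mouse 1 stood above the rest, and it also had the fewest TRBV19 templates. With the samples of a mouse summed, the TRBJ2-7 share was 43.7%, 28.0% and 28.4% in mice 1, 2 and 3, and 31.2%, 37.8% and 28.0% for all other V segments. It was higher for TRBV19 in mice 1 and 3 and lower in mouse 2, and the log2 difference was 0.03 (SE 0.33, edgeR adjusted p = 0.998). Without mouse 1 it turned to -0.21.

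TRBJ2-1 and TRBJ2-5 came next. TRBJ2-1 held 10.02% ± 2.48 of TRBV19 templates (SD over 3 mice) and TRBJ2-5 9.06% ± 2.60, against 8.94% ± 1.44 and 9.09% ± 0.376 for all other V segments. TRBJ2-4 held 6.73% ± 1.86, TRBJ2-2 5.64% ± 2.91 and TRBJ2-3 4.97% ± 3.18 of TRBV19 templates. No template of TRBV19 used the pseudogene TRBJ2-6, which held 2 templates over all V segments, or TRBJ1-7, which held 4. In the TRBJ1 cluster, TRBJ1-4 held 6.95% ± 2.44, TRBJ1-3 6.48% ± 2.45, TRBJ1-1 5.93% ± 1.55 and TRBJ1-2 5.35% ± 1.38.

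The J segments with the largest differences were TRBJ1-5 and TRBJ1-6, which TRBV19 used least of the 12 tested, and they are named for their size after the values were seen. TRBJ1-5 held 19 TRBV19 templates, 2.77% ± 0.474, against 4.66% ± 1.05 for all other V segments, and was lower for TRBV19 in 3 of 3 mice (log2 difference -0.74, SE 0.52, edgeR adjusted p = 0.668). TRBJ1-6 also held 19 templates, 2.75% ± 1.40, against 1.81% ± 0.329 (log2 difference 0.59, SE 0.48, edgeR adjusted p = 0.753). It was higher for TRBV19 in mice 2 and 3 and lower in mouse 1, at 1.51% against 1.74%, and without mouse 2 the log2 difference was 0.35. Of the 12 J segments tested, 0 passed for TRBV19. The same fits over all V segments called 0 of 228 V-J pairs, or 0%, with 26 at unadjusted p under 0.05. For TRBV19 0 of the 12 had an unadjusted p under 0.05, and DESeq2 called 0 as well.

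**Figure D2:**
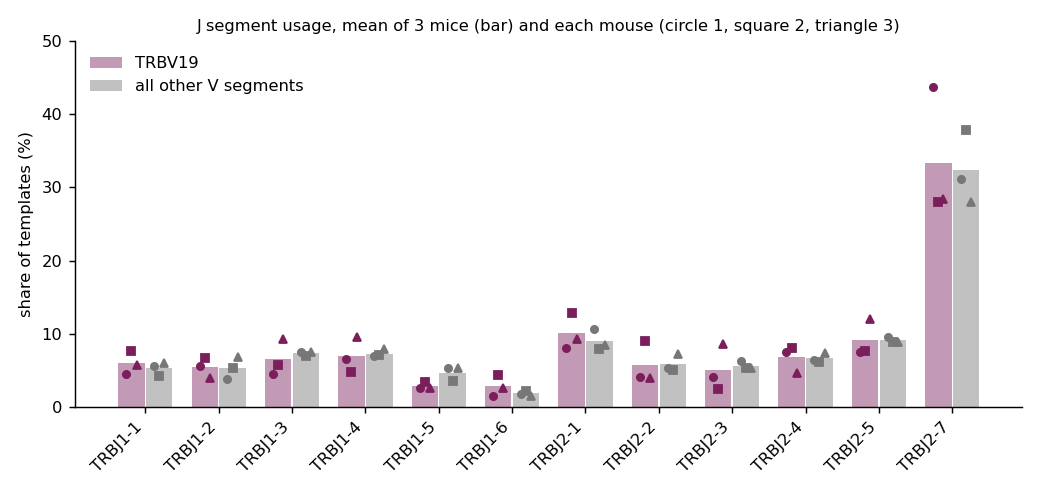
Share of templates in percent held by each of 12 J segments, for TRBV19 and for all other V segments. Bars are means of 3 mice with both samples of a mouse summed, and points are the mice. TRBJ2-7 leads in both at 33.3% and 32.4%, and mouse 1 stands apart for TRBV19 at 43.7%.

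Between the groups, the share of TRBJ2-2 within TRBV19 was lower in superior samples, at 1.41%, 2.42% and 2.65% in mice 1, 2 and 3, than in inferior samples, at 5.47%, 18.4% and 4.73%. This rested on 7 against 31 templates, 16 of them in the inferior sample of mouse 2, and TRBJ2-2 was picked after its values were seen. As a share of all templates, TRBV19 with TRBJ2-2 had a log2 superior over inferior difference of -1.78 (SE 0.75, edgeR adjusted p = 0.803, unadjusted p = 0.0187). The fit over all pairs called 0 of 172, or 0%, with 7 at unadjusted p under 0.05. For TRBV19 that was 0 of 12 pairs with 1 under 0.05, and DESeq2 also called 0. Without mouse 2 the log2 difference of TRBJ2-2 was -1.07. For TRBV19 with TRBJ2-7 the log2 difference was 0.58 (SE 0.50, edgeR adjusted p = 0.966).

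By J usage, the V segment most like TRBV19 was TRBV13-3, at a Jensen-Shannon distance of 0.0699 between mean J shares over the 6 samples. The distance is 0 for equal profiles and 1 for profiles with no J segment in common. TRBV13-2 followed at 0.118 and TRBV26 at 0.126, next to TRBV3 also at 0.126. The farthest of the 18 V segments compared was TRBV17 at 0.291, which had 74 templates.

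In the TRBJ2 joints of TRBV19, TRBD2 was called in 49.2% of templates, TRBD1 in 37.5% and no D segment in 13.3%, against 48.7%, 34.7% and 16.6% for all other V segments. Among those with a D call, TRBD1 made up 33.1%, 47.6% and 48.7% in mice 1, 2 and 3, and 41.1%, 39.5% and 43.5% for all other V segments. The difference averaged 1.77 points (SE 8.33, limma adjusted p = 0.992), and the same fit called 0 of 19 V segments, or 0%. In TRBJ1 joints, TRBD1 was called in 140 TRBV19 templates and TRBD2 in 20, of 14 rearrangements. That is 9.43% of TRBJ1 templates, from 0% to 21.7% over the samples, against 5.02% for all other V segments. Trbd2 lies downstream of the TRBJ1 cluster, so a TRBD2 call with a TRBJ1 segment does not follow the gene order, and D calls rest on few bases.

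The V end was cut back to different degrees. Of the 464 members whose CDR3 began with cysteine, 143 kept all 15 of the majority letters, or 30.8%, and 92 kept 14. A second group ended at 11 letters, with 75 members, and at 12 letters, with 71. Matches by chance at the joint are included in these counts. V bases past these 15 were not looked at, so the 143 take in any longer V end. The members kept 13.0 letters on average by templates, from 12.4 to 13.5 over the samples.

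**Figure D3:**
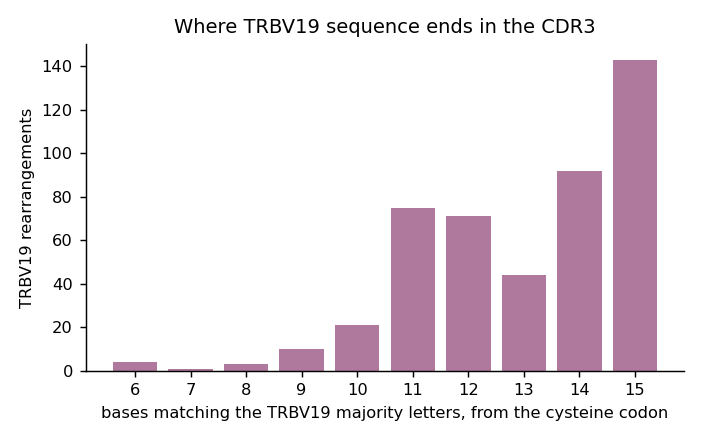
Number of TRBV19 rearrangements by how many bases match the TRBV19 majority letters in a row from the cysteine codon, out of 15. The highest bar is at 15 with 143 rearrangements, and a second rise stands at 11 and 12 with 75 and 71. The bar at 15 is the upper limit of the count and takes in any longer V end.

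Residue 5 of the CDR3, counting the cysteine as residue 1, lies at this end. Isoleucine stood there in 302 TRBV19 templates, 43.8%, against 0.222% in all other V segments. Since the segment itself encodes it, this is a property of TRBV19 and was not tested. Of the 208 rearrangements with isoleucine, 145 used the codon of the majority letters. The share was 33.8%, 52.4% and 28.3% in superior samples of mice 1, 2 and 3 and 46.9%, 36.05% and 53.6% in inferior samples, so it was lower in the superior sample of mice 1 and 3 and higher in that of mouse 2. Arginine followed with 69 templates, proline with 60, threonine with 59 and methionine, which has 1 codon, with 49.

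Central CDR3 residues of TRBV19, counted after leaving out the first 5 and the last 6 residues, did not differ from those of the other V segments beyond the test. Of 19 residues tested 0 passed (edgeR), while 12 of 361 V-residue pairs did over all V segments, or 3.32%. For TRBV19 0 of the 19 had an unadjusted p under 0.05 and DESeq2 called 0, while over all pairs 45 were under 0.05 unadjusted. Glycine was the most frequent residue at positions 6 and 7, with 30.6% and 36.1% of TRBV19 templates. All other V segments had 23.6% and 38.4% there, and glycine at single positions was not tested. Over all central residues together, glycine differed by 0.03 on the log2 scale (SE 0.06, edgeR adjusted p = 0.883). By DESeq2 the difference was also 0.03, with an SE of 0.50. Proline had the lowest p of the 19 and is named for that reason, with a log2 difference of -1.36 (SE 0.66, edgeR adjusted p = 0.449). At least 1 hydrophobic residue (F, I, L, M, V, W or Y) stood at position 6 or 7 in 40.2%, 33.3% and 24.9% of TRBV19 templates in mice 1, 2 and 3, and in 29.6%, 27.6% and 26.5% for all other V segments. It was higher for TRBV19 in 2 of 3 mice, by 4.94 points on average (SE 2.75, limma adjusted p = 0.279), and the fit called 0 of 19 V segments, or 0%. Without mouse 1 the difference was 2.08 points (limma adjusted p = 0.638) and without mouse 3 it was 8.21 (limma adjusted p = 0.0518). With each rearrangement counted once, the fit called 7 of the 19 V segments, and TRBV19 stood at 4.49 points (limma adjusted p = 0.131).

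CDR3 length was ordinary for the repertoire. TRBV19 templates had a mean CDR3 of 13.5, 13.7 and 13.7 residues in mice 1, 2 and 3, against 13.7, 13.8 and 13.7 for all other V segments. TRBV19 was shorter in 3 of 3 mice, by 0.101 residues on average (SE 0.0775, limma adjusted p = 0.387). The same fit called 4 of 19 V segments, or 21.1%, namely TRBV24 and TRBV5, which were longer, and TRBV20 and TRBV15, which were shorter. By group, the mean was 13.5 ± 0.135 residues over superior and 13.7 ± 0.113 over inferior samples (SD, n = 3), shorter in the superior sample of 3 of 3 mice. The difference of -0.203 residues did not pass a two-sided exact permutation test (p = 0.2, adjusted 0.7 over 7 values, where 0.1 is the smallest p that 3 against 3 allows).

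The most common lengths were 14 residues, with 28.0% ± 1.46 of TRBV19 templates (SD over 6 samples), 13 residues with 27.4% ± 9.38 and 15 residues with 20.6% ± 7.35. For all other V segments these were 29.5% ± 1.58, 24.7% ± 3.81 and 20.6% ± 2.45. Lengths of 13 and 15 varied more between samples for TRBV19 than for all other V segments, and a length of 14 did not. TRBV19 also has fewer templates per sample, and the cause of the spread was not tested. The longest TRBV19 CDR3 had 19 residues, with 1 template, and the shortest had 10, with 2.

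**Figure D4:**
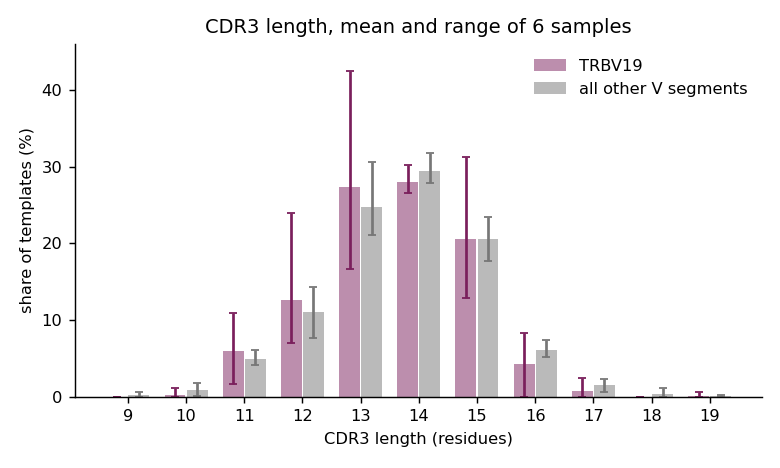
Share of templates in percent by CDR3 length in residues, for TRBV19 and for all other V segments. Bars are means of 6 samples and lines run from the lowest to the highest sample. Both are highest at 14 residues, and the TRBV19 ranges are wide, from 16.7% to 42.5% at 13 residues.

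No TRBV19 rearrangement had more than 7 templates in a sample. Single-template rearrangements were 302 of the 466, or 64.8%, against 65.4% for all other V segments. A further 125, or 26.8%, had 2 templates, against 21.7%. A total of 7 had 5 or more, 1.502% against 3.07%. The largest of the 3943 rearrangements of all other V segments had 35. TRBV19 had 1.51, 1.45 and 1.5 templates per rearrangement in mice 1, 2 and 3, against 1.59, 1.64 and 1.61. This was lower in 3 of 3 mice, with a log2 difference of -0.12 (SE 0.06, limma adjusted p = 0.190). TRBV1, TRBV5, TRBV12-2, TRBV13-2, TRBV16 and TRBV24 were also lower than all other V segments in 3 of 3 mice. TRBV2, TRBV13-3 and TRBV26 were higher in 3 of 3 mice. The fit called 2 of 19 V segments, or 10.5%, which were TRBV2 and TRBV24. The share of single-template rearrangements differed by -0.983 points (SE 2.36, limma adjusted p = 0.786), and it fell on different sides in different mice. For that share 4 of 19 V segments were called, or 21.1%.

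The largest member, the TRBJ1-3 joint shown for the inferior sample of mouse 3, had 7 templates there or 0.377% (95% Wilson interval 0.183% to 0.777%). It was at 0 of 1136 in the superior sample, which allows up to 0.264%. The TRBJ2-7 joint shown for the inferior sample of mouse 1 and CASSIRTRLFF with TRBJ1-4 each had 6 in the inferior sample of mouse 1, 0.438% (0.201% to 0.952%), and 0 of 667 in the superior one, which allows up to 0.450%. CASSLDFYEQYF with TRBJ2-7 had 5 templates in the superior sample of mouse 1, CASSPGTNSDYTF with TRBJ1-2 had 5 in that of mouse 2, and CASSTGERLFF with TRBJ1-4 and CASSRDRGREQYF with TRBJ2-7 had 5 each in that of mouse 3. The superior sample of mouse 1 also held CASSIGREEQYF with 4 templates and a CDR3 of 15 residues with 3, both with TRBJ2-7. The latter was 1 of 5 members of that size there. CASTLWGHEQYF and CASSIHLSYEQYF, with TRBJ2-7, had 3 each in the superior sample of mouse 2, and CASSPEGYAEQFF with TRBJ2-1 had 4 in that of mouse 3. In inferior samples, a TRBJ2-4 member also found in the superior sample had 3 in mouse 1, 1 of 5 members of that size. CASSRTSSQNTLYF and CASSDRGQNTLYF with TRBJ2-4 had 4 and 3 in mouse 2, where a TRBJ2-1 member of 16 residues had 2, 1 of 24 members of that size. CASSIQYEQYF and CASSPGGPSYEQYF with TRBJ2-7 had 4 each in mouse 3.

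The number of templates per TRBV19 rearrangement went with the J segment. Members with TRBJ2-7 had 2.28, 1.73 and 2.13 templates each in the superior samples of mice 1, 2 and 3 and 2.0, 1.75 and 2.40 in the inferior samples. Members with any other J segment had 1.11, 1.30 and 1.25, and 1.28, 1.43 and 1.38. TRBJ2-7 was higher in 6 of 6 samples, with no overlap, and of its 110 members 23.6% had 3 or more templates, against 3.65% of the other 356. TRBJ1-3, TRBJ1-4, TRBJ1-5 and TRBJ1-2 followed with 1.81, 1.79, 1.73 and 1.57 templates each, while TRBJ1-6, TRBJ1-1 and TRBJ2-5 had 1.0, 1.05 and 1.08. For all other V segments the values ran from 1.05 for TRBJ1-1 to 2.34 for TRBJ2-7. Over the 12 J segments the values of TRBV19 and of all other V segments correlated at a Pearson's r of 0.976 and a Spearman's rho of 0.965, as a description of J segments measured in the same libraries.

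**Figure D5:**
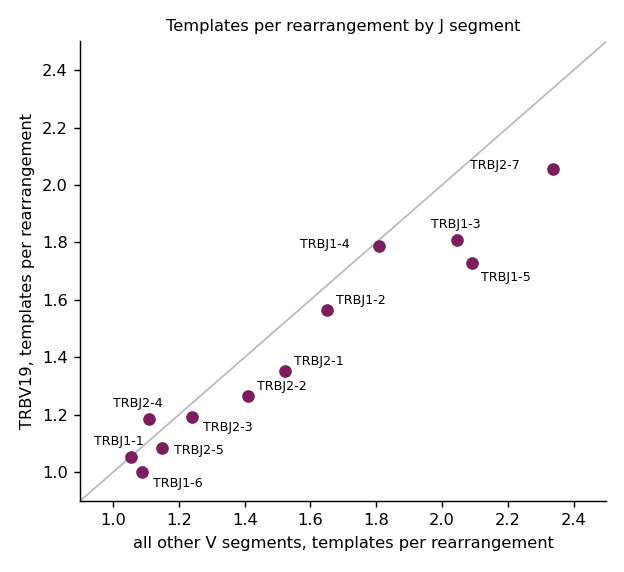
Templates per rearrangement for each of 12 J segments over all 6 samples, TRBV19 on the vertical axis and all other V segments on the horizontal axis. The line marks equal values. TRBJ2-7 is highest on both axes, at 2.05 and 2.34, and TRBJ1-1, TRBJ1-6 and TRBJ2-5 lie near 1 template.

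Few TRBV19 rearrangements were found in both samples of a mouse. For mice 1, 2 and 3 these were 2 of 130, 5 of 141 and 7 of 181 distinct rearrangements, or 1.54%, 3.55% and 3.87%. All other V segments had 36 of 1122, 53 of 1048 and 59 of 1625, or 3.21%, 5.06% and 3.63%. TRBV19 was lower in mice 1 and 2 and higher in mouse 3, by -0.982 points on average (SE 0.631, limma adjusted p = 0.725), and the fit called 0 of 19 V segments, or 0%, with 1 at unadjusted p under 0.05. Shared rearrangements held 3.52%, 7.58% and 8.51% of TRBV19 templates in mice 1, 2 and 3, against 10.1%, 16.7% and 8.01% for all other V segments.

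The 5 shared members with 4 or more templates in all are shown, with capitals as above.
TRBV19 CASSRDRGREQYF TRBJ2-7, mouse 3: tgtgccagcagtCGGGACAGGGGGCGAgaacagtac
TRBV19 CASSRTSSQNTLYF TRBJ2-4, mouse 2: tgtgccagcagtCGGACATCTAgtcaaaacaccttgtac
TRBV19 with TRBJ2-4, mouse 1: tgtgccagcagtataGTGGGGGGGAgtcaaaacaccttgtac
TRBV19 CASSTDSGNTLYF TRBJ1-3, mouse 3: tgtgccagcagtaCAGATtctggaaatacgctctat
TRBV19 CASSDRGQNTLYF TRBJ2-4, mouse 2: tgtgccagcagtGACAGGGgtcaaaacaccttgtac

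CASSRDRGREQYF had 5 superior and 2 inferior templates. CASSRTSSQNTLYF had 1 and 4, the TRBJ2-4 member of mouse 1 had 1 and 3, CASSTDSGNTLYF had 2 and 2, and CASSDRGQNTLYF had 1 and 3. The remaining named members had 3 templates in all, split 1 and 2. They were a TRBJ1-4 and a TRBJ1-1 member of 15 residues and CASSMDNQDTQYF with TRBJ2-5 in mouse 3, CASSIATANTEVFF with TRBJ1-1 in mouse 2 and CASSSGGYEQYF with TRBJ2-7 in mouse 1. Isoleucine at position 5 was in 21.4% of the 28 listings of shared members, against 46.3% of the 436 listings found in 1 sample. Each shared member is listed in both samples of its mouse and so counts 2 times in the 28. This describes few members, with no test.

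Across mice, 0 of 452 TRBV19 rearrangements were found in 2 or more mice by nucleotides, against 9 of 3786, 0.238%, for all other V segments. By amino acids of the CDR3 with the same J segment, 2 of 389 were, or 0.514%, against 28 of 3362, or 0.833%. Both are shown, because each amino acid sequence was built from different joints in the 2 mice.
TRBV19 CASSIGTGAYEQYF TRBJ2-7, mouse 1: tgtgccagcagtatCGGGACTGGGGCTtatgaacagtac
TRBV19 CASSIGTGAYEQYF TRBJ2-7, mouse 3: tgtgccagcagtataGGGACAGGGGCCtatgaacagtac
TRBV19 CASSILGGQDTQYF TRBJ2-5, mouse 2: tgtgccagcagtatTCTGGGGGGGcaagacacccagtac
TRBV19 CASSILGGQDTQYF TRBJ2-5, mouse 3: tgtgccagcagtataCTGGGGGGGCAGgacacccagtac

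All 4 listings were in inferior samples, which held 84.3 TRBV19 rearrangements on average, against 71 in superior samples. With 2 such clonotypes this was not tested. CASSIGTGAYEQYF had 2 templates in mouse 1 and 3 in mouse 3, with a TRBD2 and a TRBD1 call, and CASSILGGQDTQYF had 1 template in each mouse. Both have isoleucine at residue 5.

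Between superior and inferior samples, the other single values of TRBV19 did not pass the exact permutation test either. Templates per rearrangement were 1.47 ± 0.0964 over superior and 1.51 ± 0.0479 over inferior samples (SD, n = 3, exact p = 0.6), and 67.7% ± 5.28 and 61.4% ± 6.33 of rearrangements had 1 template (exact p = 0.3). TRBJ1 segments held 26.9% ± 9.07 and 31.02% ± 7.60 of templates (exact p = 0.5), and TRBJ2-7 38.9% ± 16.4 and 29.5% ± 5.97 (exact p = 0.6). TRBD1 made up 47.3% ± 13.5 and 39.9% ± 7.96 of TRBJ2 joints with a D call (exact p = 0.5), and the difference of 7.37 points was 0.0343 without mouse 3 and 11.7 without mouse 2. The hydrophobic share at positions 6 and 7 was 34.8% ± 10.6 and 32.0% ± 6.64 (exact p = 0.8). After Benjamini-Hochberg adjustment over the 7 values all stood at 0.7 or 0.8. Without mouse 1 the TRBJ2-7 difference was 3.21 points instead of 9.41.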

How the data were processed

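Per the labels' protocols, DNA of sorted splenic Tfr cells went through the survey version of Adaptive's immunoSEQ assay for mouse TCRB. The submitters' processing notes name mm10. Which aligner, clonotype caller or filter was used is not given in the sources used here. For each rearrangement of 87 bases the authors deposited a whole-number count. Counts are called templates, although they could be reads, since the files do not say. The deposited fraction of each rearrangement was not used further.

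TRBV19 members and all lists were chosen with earlier results of these data known. The V letters, the forms upstream of the cysteine and the summary by residue 5 were chosen after seeing the data. CDR3 features leave out 2 members with no cysteine at the start. Junction bases were not listed, so the planned inserted and deleted bases were replaced by the stretches between V and J letters, where J letters are those shared by more than 0.5 of the rearrangements of a J segment. All 29 V segment names matched the RefSeq table.

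Superior and inferior samples were compared with edgeR 4.0.16 (R 4.3.3), using quasi-likelihood, a common dispersion and a minimum of 10 templates. Each SE given with edgeR was calculated back from the two-sided p-value and the degrees of freedom. For TRBV19 against all other V segments, the samples of a mouse were summed and the mouse was a block. Scalar measures used limma 3.58.1 over the 19 V segments with 20 or more templates in each mouse. Adjustment was by Benjamini-Hochberg at 0.05 over the whole table of each comparison. Single values used two-sided exact permutation tests over 20 assignments. DESeq2 1.42.0 was an alternative, and the edgeR and limma steps were tested on simulated data. Other steps used Python 3.11.15, pandas 2.3.3 and scipy 1.17.1. The rule for named clonotypes took from each sample its 3 largest, the 10 largest found in both samples of a mouse, and all found in 2 or more mice by amino acids, with ties taken in the order of their nucleotides. The single J segments, pairs and residues given with a fold were chosen after their values were seen. Named most alike V segments were the 3 with the smallest Jensen-Shannon distance in J usage.

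The mouse number pairs the samples, since the titles give both to 1 animal. As a check, V segment shares were set against their group mean and correlated between the samples of mouse 1, 2 and 3 over 23 V segments. This gave 0.0719, 0.677 and -0.356 in percent, and 0.0401, -0.329 and -0.202 as log2(percent + 0.05).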

Additional observations from a re-analysis of the deposited data

How the results depend on the processing

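The TRBV19 share kept its direction under all 8 alternatives, with log2 values of superior over inferior from 0.12 to 0.23 and adjusted p from 0.516 to 0.990, and the mouse as a replicate block gave 0.19 (edgeR adjusted p = 0.531). No count of TRBV19 calls left 0 under any alternative, for V-J pairs, J usage or central residues. The block changed no call of TRBV19. Over all V segments, calls in J usage went from 0 to 2 without the replicate block. Calls in central residues went from 12 to 25 without the replicate block, to 1 by DESeq2 and to 1 to 3 without 1 mouse, and calls in CDR3 length from 4 to 0 or 1 without 1 mouse. Of these J usage and residue calls, 0 were of TRBV19.

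Several differences that passed no test turned in sign, and others kept their sign but changed in size. In inferior samples only, TRBJ2-7 usage against the other V segments stood at -0.087 (log2), and TRBD1 within TRBJ2 at -1.51 points. Counting each rearrangement once gave -0.00044 (log2) for glycine. Leaving out 1 mouse gave a range of -0.21 to 0.25 (log2) for TRBJ2-7 usage, -3.01 to 1.02 points for single-template rearrangements, -3.56 to 0.801 points for TRBJ1 and -1.40 to 6.68 points for TRBD1. Between superior and inferior samples, thinning to 71 TRBV19 templates gave 0.0608 templates per rearrangement and -0.188 points for the single-template share. Leaving out 1 mouse gave -0.683 to 5.51 points for hydrophobic residues, -0.122 to 0.0078 templates per rearrangement and -12.1 to 1.70 points for TRBJ1. Also between these groups, it gave 0.0343 to 11.7 points for TRBD1, 3.11 to 11.1 points for the single-template share and 3.21 to 14.2 points for TRBJ2-7. Against the other V segments it gave -2.05 to -0.83 (log2) for proline, 2.08 to 8.21 points for hydrophobic residues and -1.59 to -0.637 points for rearrangements in both samples. The cause of these changes was not tested. With 71 to 169 TRBV19 templates per sample, depth limits every share within TRBV19.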

Other observations

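Of the 466 TRBV19 members, 57 repeated the CDR3 nucleotides and J segment of another member of the same sample and differed only upstream of the CDR3, or 12.2%, against 9.61% for all other V segments. Among the 19 V segments with 20 or more templates in each mouse, TRBV19 had rank 5, after TRBV24, TRBV13-2, TRBV29 and TRBV16. A single form accounted for 40 of the TRBV19 members. It lacks 1 c of a run of 3 upstream of the cysteine codon. The letters are shown up to the last base before that codon.
TRBV19, most frequent form: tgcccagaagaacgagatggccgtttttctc
TRBV19, second form: tgccagaagaacgagatggccgtttttctc

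The second form was listed in all 6 samples, with 4 to 11 members each. All 40 had 1 template, and all 40 repeated the CDR3 of a member of equal or larger size in the same sample, with 1 to 6 templates (median 2). After merging such repeats, 409 members remained, 56.2% of them with 1 template instead of 64.8%, and 16.4% had 3 or more templates. For all other V segments 58.9% had 1 and 17.7% had 3 or more. The largest merged TRBV19 member had 8 templates. Merging moved the log2 difference in templates per rearrangement from -0.12 to -0.08 (limma adjusted p = 0.562). Whether these repeats were separate cells was not tested.

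Some TRBV19 members had near-identical CDR3. Of 387 distinct CDR3 amino acid sequences that began with cysteine, 72, or 18.6%, had at least 1 other TRBV19 CDR3 of the same length that differed at 1 residue. Of these 44 pairs, 22 took in sequences of more than 1 mouse, such as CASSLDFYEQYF and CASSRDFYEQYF with 9 templates in all. The most such partners were 3, for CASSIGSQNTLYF, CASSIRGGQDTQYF and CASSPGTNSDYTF. The same count was not made for other V segments.

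Some CDR3 of TRBV19 were also found with another V segment. This held for 6 of 389 distinct CDR3 sequences, or 1.54%, with 12 templates, and 1 of the 7 listings carried isoleucine at position 5. In all other V segments isoleucine stood there in 0.222% of templates, so few CDR3 with it could be matched. The same share was not counted for other V segments. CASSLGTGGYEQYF with TRBJ2-7 was listed with TRBV19 (3 templates, mouse 2) and also with TRBV5, TRBV15, TRBV16, TRBV26 and TRBV29.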
